A study of Mus musculus with 2 samples.

Results

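The transcripts of 6 fibroblast growth factor (FGF) ligands, Fgf1, Fgf7, Fgf8, Fgf9, Fgf10 and Fgf20, and of 3 FGF receptors, Fgfr1, Fgfr2 and Fgfr3, were followed across the nuclei of the developing mouse kidney. These 9 genes were found by their symbols among the 32285 genes of the count matrices. Nuclei came from pooled kidneys of male and female mice, with 1 library for E18.5 and 1 for P3. The E18.5 mice carried floxed alleles of both Myc and Mycn (Mycf/f;Mycnf/f) without Cre on a mixed background, and the P3 mice were wild type C57BL/6J by their labels, whereas the study's methods give a mixed background. Differences of age cannot be told apart from those of genotype, background, Cell Ranger release or the library itself, and nuclei are not replicates, so no test between the ages was possible. A value is the sum of unique molecular identifiers (UMIs) of a gene in a class of nuclei, scaled to the total UMIs of the class (CPM), and intervals are exact, at 95%, and cover counting error only.

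FGFs bind receptor tyrosine kinases together with heparan sulfate, and the receptors signal through FRS2 and the MAP kinases to transcription factors such as ETV4 and ETV5. In the kidney, FGF7 and FGF10 are known as stromal and mesenchymal ligands of an epithelial isoform of FGFR2 in the ureteric bud. FGF9 and FGF20 are known to keep nephron progenitors undifferentiated, and FGF8 is known to be needed by nascent nephrons.

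After quality limits and removal of called doublets, 17749 nuclei with 56336462 UMIs remained at E18.5 and 9716 nuclei with 45517380 UMIs at P3, with medians of 2920 and 4037.5 UMIs per nucleus. The libraries shared 69 barcodes. Clusters were found without the FGF genes and named from other markers, which gave 16 classes at both ages. Of the markers of nephron progenitor-like nuclei, 6 of 9 were at 2 times the other nuclei or more at E18.5 and 5 of 9 at P3, and of those of podocyte-like nuclei 10 of 10 at both ages. Cited1, a marker of uninduced progenitors, had 31.9 CPM in these nuclei at E18.5, against 21.6 in all others, and 1.30 at P3, so it was not raised at either age. Eya1, another progenitor regulator, had 1776 CPM in them at E18.5 and 2191 at P3. Of the markers of ureteric tip-like nuclei, 7 of 8 were raised at E18.5 and 5 of 8 at P3, where this class was 1 cluster of 303 nuclei with 9 of 10 collecting duct markers raised. Wnt11, a tip ligand, had 85.0 CPM in it at E18.5 against 11.4 in all others, but 32.4 against 18.4 at P3. Nephrogenic zone stroma-like nuclei had 5 of 6 markers raised at E18.5 and 3 of 6 at P3. Foxd1 and Aldh1a2 were among those not raised at P3. Clusters without a name held 24.9% of nuclei at E18.5 and 18.9% at P3. Fgf1, Fgf7 and Fgf20 overlap Arhgap26, Fam227b and Micu3 on the opposite strand, and whether counting used strand is not given in the sources used here.

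Each of the 9 genes had at least 2 times its level in all other nuclei in the class where it was highest, at both ages. By the same measure 54.5% of genes with at least 50 UMIs passed at E18.5 and 64.5% at P3, so the count alone does not set the FGF genes apart. Where they were highest did differ from gene to gene. Fgf1 and Fgf20 were highest in nephron progenitor-like nuclei at E18.5, Fgf9 in loop of Henle-like nuclei, Fgf7 in a small part of the stroma, Fgfr1 in early nephron-like nuclei, Fgfr2 in collecting duct-like nuclei and Fgfr3 in proximal tubule-like nuclei. The plot of levels by class shows all of them at both ages.

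**Figure D1:**
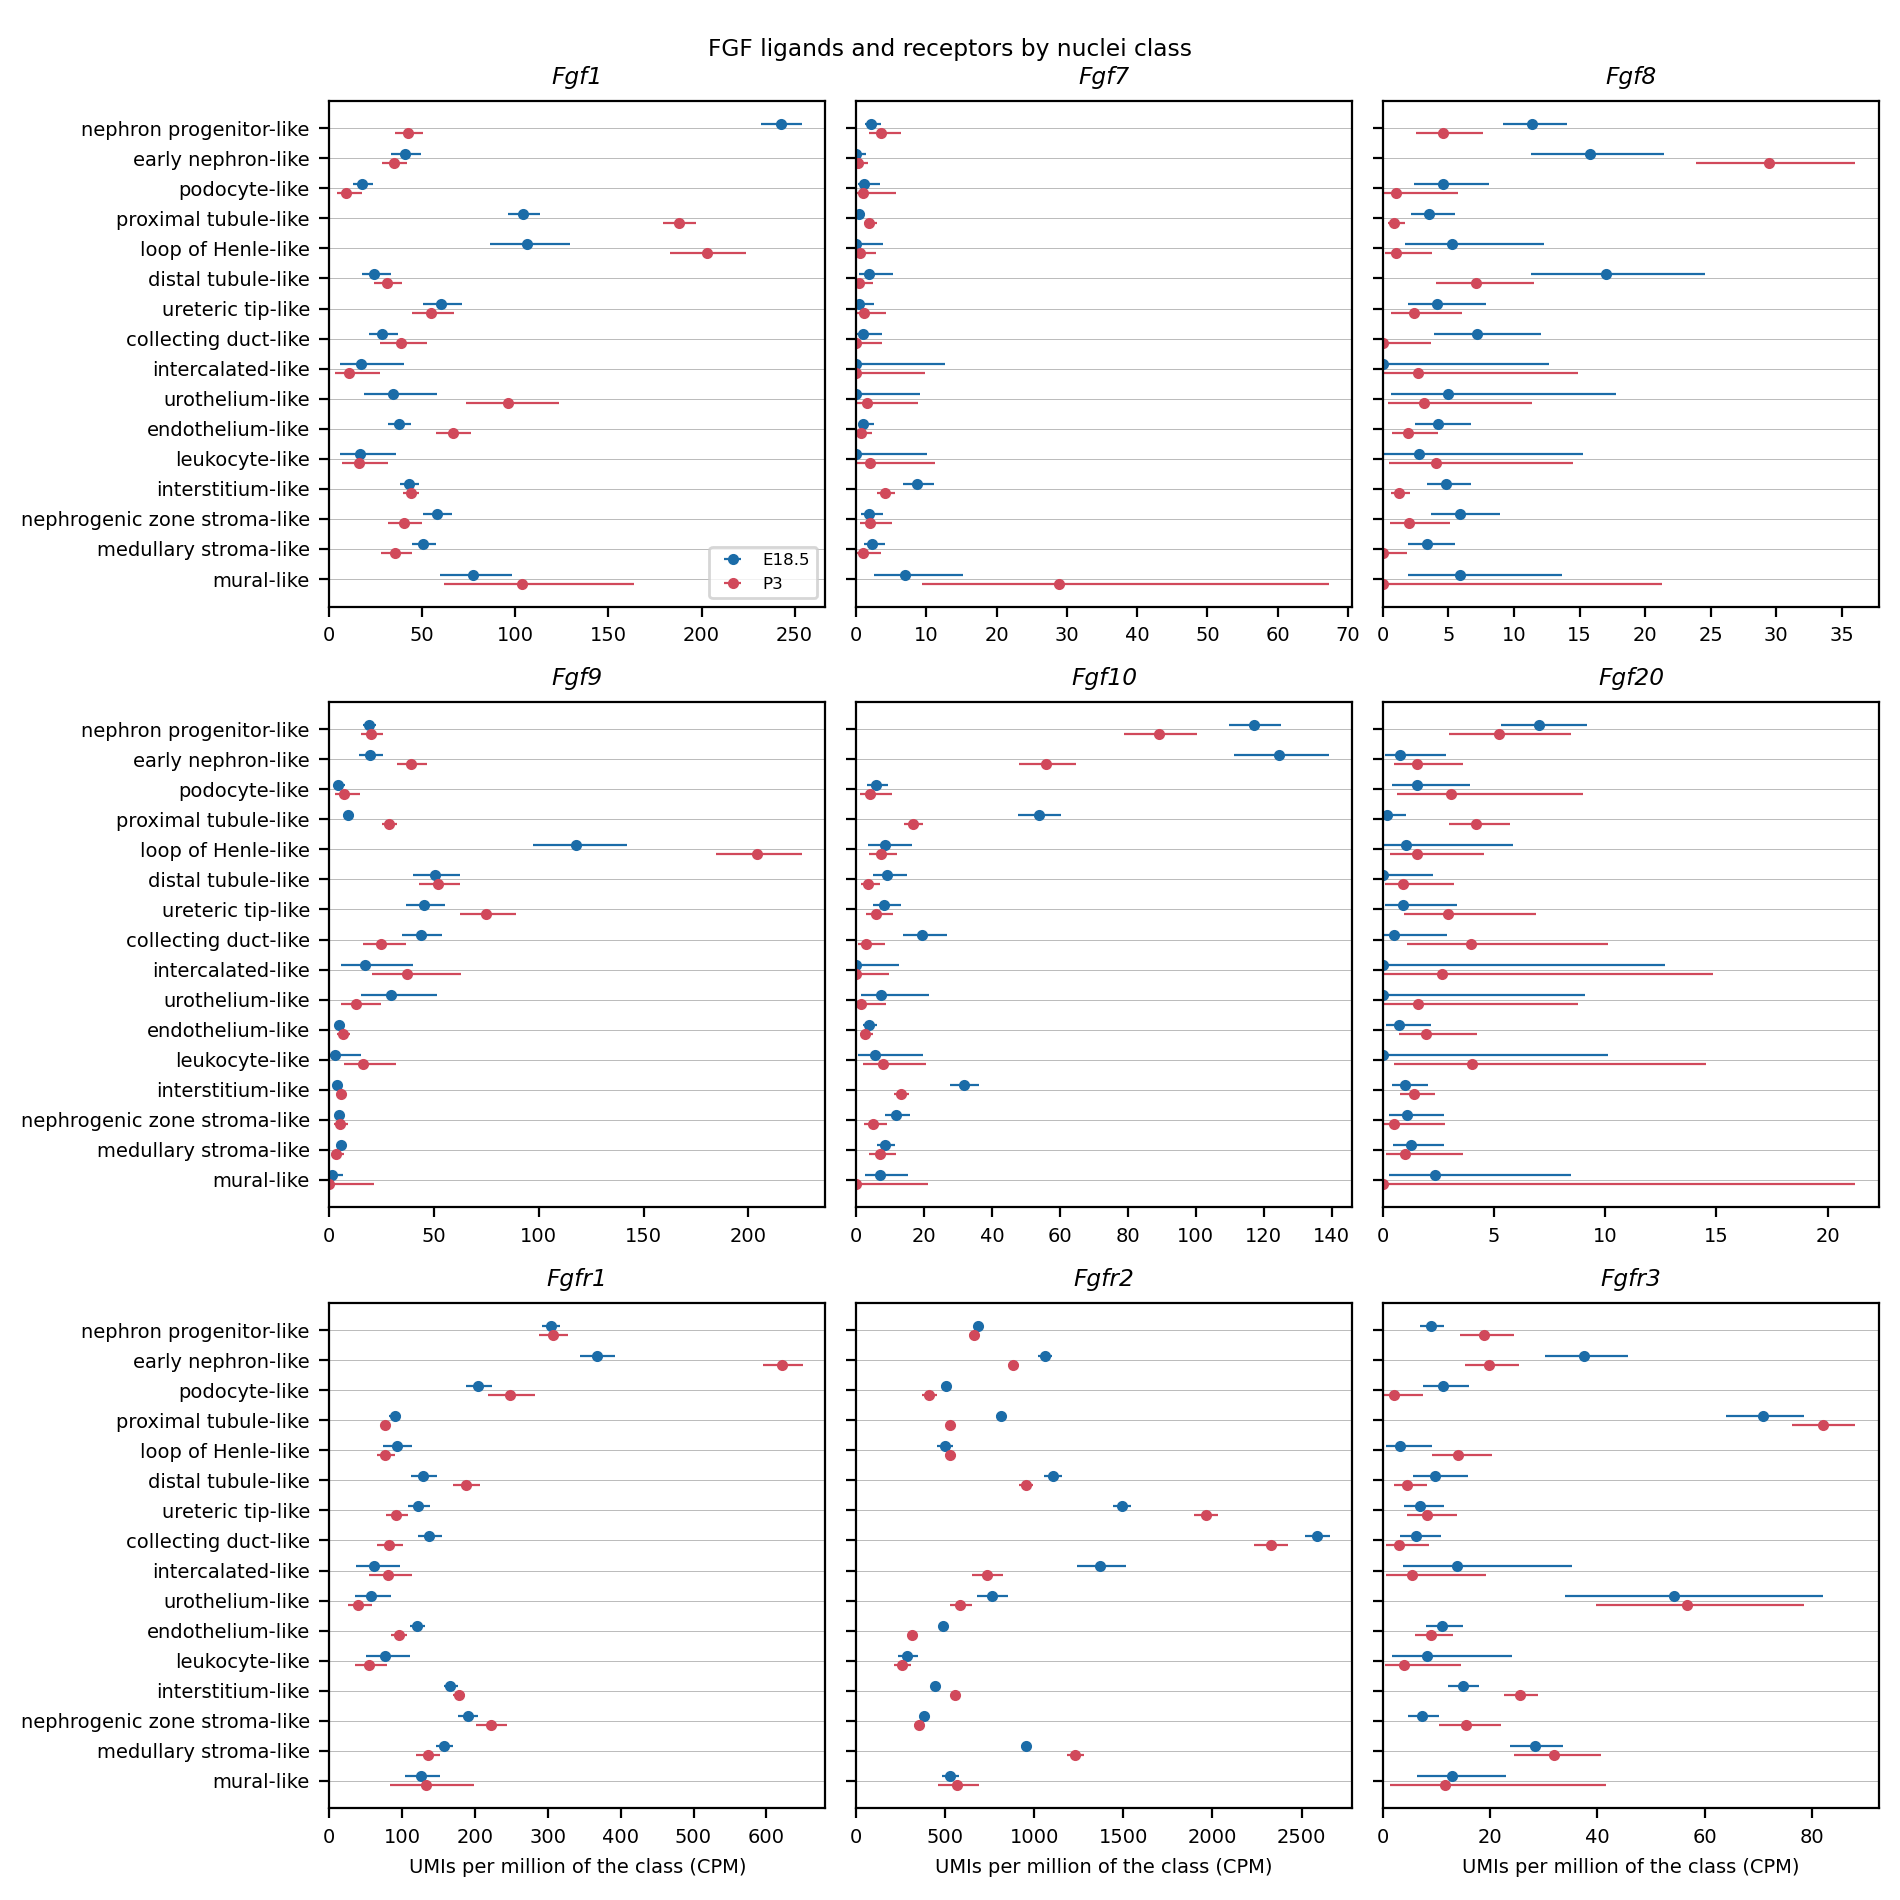
CPM of each FGF gene (horizontal axis, a separate linear scale for each gene) in the 16 classes at E18.5 (blue) and P3 (red), with exact 95% Poisson intervals that cover counting error only. Fgf1 stands at 243 CPM in nephron progenitor-like nuclei at E18.5 and at 42.4 at P3, and Fgf9 stands highest in loop of Henle-like nuclei at both ages.

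Fgf1 (ENSMUSG00000036585, chromosome 18, 38838673 to 38929472, minus strand, GRCm38), a ligand that binds all FGF receptors, had the lowest ratio of P3 to E18.5 of any pair of gene and class with at least 50 UMIs. In nephron progenitor-like nuclei it had 243 CPM (95% interval 232 to 254, 1897 UMIs) at E18.5 and 42.4 CPM (130 UMIs) at P3, a ratio of 0.174. In that class 11.0% of 12765 genes were at P3 at or below 1/2 of their E18.5 level. At E18.5 these nuclei held 44.4% of all Fgf1 UMIs and 13.9% of all UMIs, and their level was 2.28 times (1.87 to 2.82) that of loop of Henle-like nuclei, the next class. Leukocyte-like nuclei, which served as a reference for free RNA, had 16.5 CPM at E18.5 and 16.1 at P3.

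The 3 progenitor clusters at E18.5 differed among themselves in Fgf1. The cluster led by Btbd11, Nell1 and Eya1 had 380 CPM (357 to 404, 864 nuclei), and a second led by Eya1 and Mdga2 had 269 (246 to 294, 438 nuclei). The remaining one, with Bmper, Kcnq5 and Snap91 among its leading genes, had 117 (106 to 130, 954 nuclei). Both progenitor clusters at P3 were lower than any of these, with 40.2 CPM (30.9 to 51.3) and 44.7 CPM (34.6 to 56.9). The intervals of the 2 ages did not overlap in any pair of these clusters. Bmper and Snap91 were also among the leading genes of both P3 clusters, whereas Btbd11 and Nell1 were among those of neither. The progenitor-like class thus differed in the clusters it held between the ages, and the part of this in the ratio was not tested. In nuclei thinned to 1000 UMIs, 20.2% of progenitor-like nuclei had a Fgf1 UMI at E18.5 and 4.27% at P3. Without thinning the shares were 44.4% and 15.04%, at median depths of 3199.5 and 4677 UMIs. In leukocyte-like nuclei, with median depths of 2291 and 2623.5, the thinned shares were 2.63% and 1.18%.

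In 2 tubule classes the ratio was above 1. In proximal tubule-like nuclei, which reabsorb most of the filtrate, Fgf1 had 104 CPM (95.9 to 113) at E18.5 and 188 CPM (179 to 197) at P3, a ratio of 1.80 (1.64 to 1.98). At E18.5 this class held clusters of 165 and 255 nuclei with Grid1 among their leading genes. At P3 a cluster of 68 nuclei with Grid1 among its leading genes had no class. The part of this make-up in the ratio was not tested. In loop of Henle-like nuclei it had 106 CPM (86.6 to 129) and 203 CPM (183 to 224), a ratio of 1.91 (1.53 to 2.40), or 2.89 with Leiden clusters. The Leiden class held 913 nuclei at E18.5 and 391 at P3, against 251 and 360 in the main clusters. Proximal tubule-like and loop of Henle-like nuclei were the leading classes at P3, and their ratio of 1.08 (0.964 to 1.20) did not order them. Summed over all nuclei, the level of Fgf1 hardly differed, with 75.8 CPM at E18.5 and 80.0 CPM at P3.

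Fgf20 (ENSMUSG00000031603, chromosome 8, 40279166 to 40308331, minus strand) was sparse, with 104 UMIs in all E18.5 nuclei and 120 at P3. At E18.5, 55 of the 104 were in nephron progenitor-like nuclei, at 7.04 CPM (5.30 to 9.16) against 1.01 in all other nuclei, a ratio of 6.97 (4.66 to 10.5). Mural-like nuclei were next with 2.34 CPM from 2 UMIs, too few to order them (ratio 3.01, 0.794 to 25.4). At P3 the progenitor-like nuclei had 5.21 CPM (2.98 to 8.47) from 16 UMIs. The next class, proximal tubule-like nuclei, had 4.20 CPM (2.98 to 5.74) from 39 UMIs, and the ratio of 1.24 (0.648 to 2.28) did not order both classes. Proximal tubule-like nuclei had 1 Fgf20 UMI at E18.5. Leukocyte-like nuclei had 4.02 CPM from 2 UMIs at P3. A difference between the ages in progenitor-like nuclei was not detectable at this depth (ratio 0.741, 0.396 to 1.31).

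Fgf9 (ENSMUSG00000021974, chromosome 14, 58070547 to 58112720, plus strand) is a ligand with known roles in progenitors. It was measured most in the distal part of the nephron and, except in collecting duct-like nuclei at P3, in the ureteric lineage. Loop of Henle-like nuclei, defined by the sodium transporter Slc12a1 among others, had 118 CPM (97.1 to 142) at E18.5 and 204 CPM (185 to 225) at P3. At E18.5 distal tubule-like nuclei followed with 50.4 CPM, ureteric tip-like with 45.3 and collecting duct-like with 43.7, and no neighbours among these 3 were ordered by their intervals. At P3 ureteric tip-like nuclei followed with 74.8 CPM, distal tubule-like with 52.0 and early nephron-like with 39.1. Collecting duct-like nuclei had 24.7 CPM at P3, and proximal tubule-like nuclei 28.5. Nephron progenitor-like nuclei had 18.9 CPM (16.0 to 22.3) at E18.5 and 19.9 CPM at P3. Thus their level of Fgf9 was below that of the loop, by a factor outside the counting error at both ages.

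The P3 loop of Henle-like nuclei fell into 2 clusters that were opposite in Fgf9 and Fgf1. The cluster of 51 nuclei led by Casr and Enox1 had 418 CPM of Fgf9 (343 to 505) and 26.9 CPM of Fgf1 (10.8 to 55.3). The other cluster, of 309 nuclei, had 171 CPM of Fgf9 (152 to 192) and 230 CPM of Fgf1 (208 to 254). The single loop cluster at E18.5 had 118 CPM of Fgf9 and 106 CPM of Fgf1. Casr was among the leading genes of all of these clusters. It encodes the calcium-sensing receptor, which acts in the thick ascending limb.

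Over all nuclei Fgf9 had 16.2 CPM at E18.5 and 29.6 CPM at P3, a ratio of 1.83 (1.68 to 1.99). With the E18.5 level of each class and the P3 make-up of classes the ratio would be 1.12. Within classes it was 1.73 (1.40 to 2.16) in loop of Henle-like nuclei, or 3.19 with Leiden clusters (913 and 391 nuclei), and 1.65 (1.26 to 2.17) in ureteric tip-like nuclei. It was 0.565 (0.347 to 0.892) in collecting duct-like nuclei, and the intervals held 1 in nephron progenitor-like (1.05, 0.766 to 1.42) and distal tubule-like nuclei (1.03, 0.771 to 1.38). The collecting duct-like class held clusters of 436, 35 and 57 nuclei at E18.5 and a cluster of 143 at P3. Slc14a2 led the P3 cluster and the E18.5 cluster of 57, whereas Kcnh7 led that of 436. At P3 the cluster of 303 nuclei counted as ureteric tip-like had 9 of 10 collecting duct markers raised. The part of this make-up in the ratios of both classes was not tested. In proximal tubule-like nuclei the ratio of Fgf9 was 3.14 (2.31 to 4.35), from 9.08 and 28.5 CPM, or 4.85 with called doublets kept. That class held clusters with Grid1 among their leading genes at E18.5 only, and their part in this ratio was not tested. At P3 at least 2 times the E18.5 level was reached by 5.19% of the genes of proximal tubule-like nuclei. In leukocyte-like nuclei Fgf9 had 2.74 CPM from 1 UMI at E18.5 and 16.1 CPM from 8 at P3, a ratio of 5.87 (0.787 to 260) that was not beyond counting error.

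Fgf8 (ENSMUSG00000025219, chromosome 19, 45736798 to 45742915, minus strand) was high in a few small clusters of nascent nephrons. At E18.5 an early nephron-like cluster of 71 nuclei, led by Rmst and Alk (N7 in the plot of nephrogenic clusters), had 69.3 CPM (42.9 to 106). At P3, the clusters of 96 and 141 nuclei that also had Rmst among their leading genes (N2 and N3) had 59.0 CPM (41.5 to 81.3) and 50.3 CPM (37.3 to 66.3). An E18.5 cluster of 701 nuclei without a class, led by Sim2, Tenm2 and Lgr5, had 35.2 CPM (28.1 to 43.5) and 85 of the 479 Fgf8 UMIs of the library. As a class, early nephron-like nuclei had 15.8 CPM (11.3 to 21.5) at E18.5 and 29.5 CPM (23.8 to 36.0) at P3. Distal tubule-like nuclei had 17.0 CPM at E18.5, which the counting error does not separate from early nephron-like nuclei.

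These clusters, called Rmst clusters here, also had the highest Fgf9 of the nephrogenic lineage. Fgf9 reached 85.8 CPM (56.0 to 126) in the E18.5 cluster and 59.0 CPM (41.5 to 81.3) and 68.4 CPM (53.1 to 86.7) in those at P3, against 18.9 CPM in progenitor-like nuclei at E18.5. Their Fgfr1 was 591 CPM (507 to 684) at E18.5 and 580 CPM and 836 CPM (780 to 895) at P3.

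**Figure D2:**
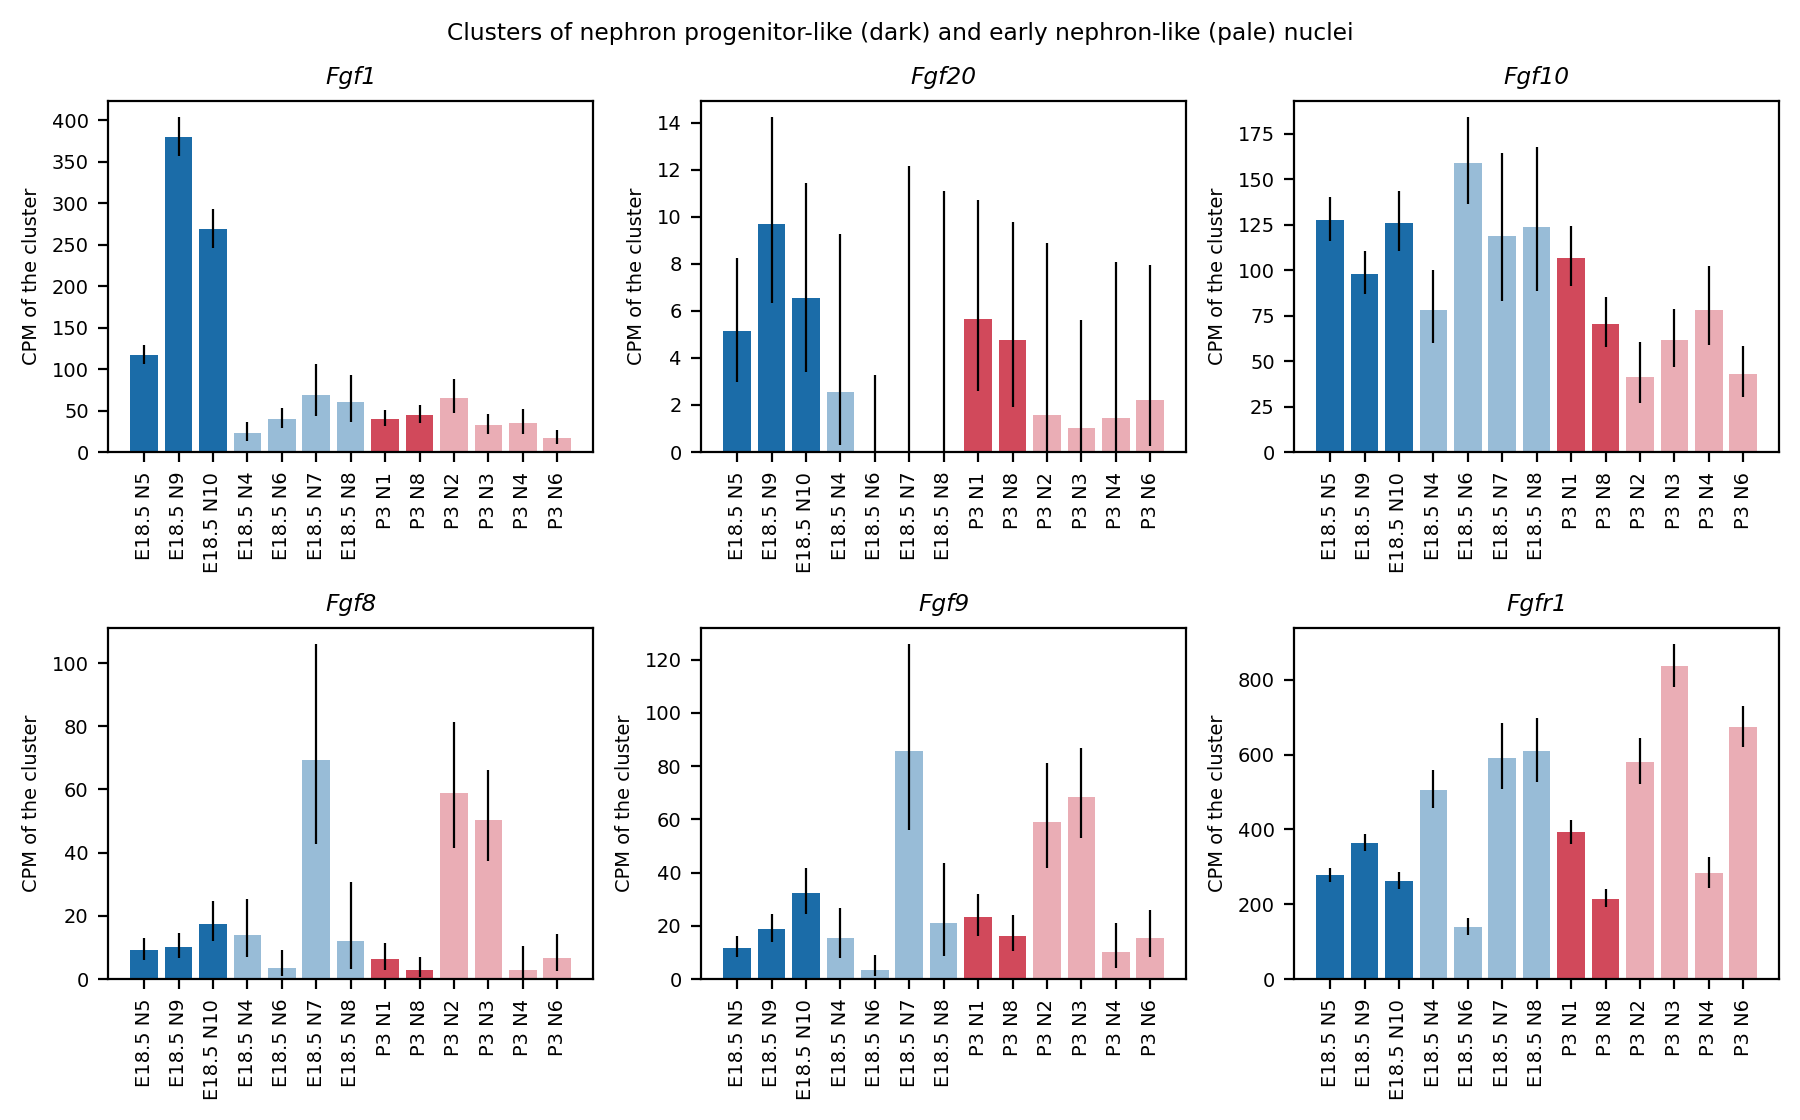
CPM of 6 FGF genes (vertical axis, linear from 0) in the clusters of nephron progenitor-like nuclei (dark) and early nephron-like nuclei (pale) at E18.5 (blue) and P3 (red), with exact 95% Poisson intervals. Fgf1 is highest in the dark blue bars, and Fgf8 and Fgf9 are highest in E18.5 N7 and in P3 N2 and N3.

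Fgf10 (ENSMUSG00000021732, chromosome 13, 118669791 to 118792115, plus strand) was, by class, highest in the nephrogenic lineage, while small stromal clusters were higher. Early nephron-like nuclei had 125 CPM (111 to 139) at E18.5 and nephron progenitor-like nuclei 117 (110 to 125), which did not differ beyond counting error. At P3, progenitor-like nuclei led with 89.3 CPM (79.0 to 101) and early nephron-like nuclei followed with 55.9 CPM (48.0 to 64.6). The ratio of P3 to E18.5 was 0.762 (0.663 to 0.873) in progenitor-like nuclei and 0.448 (0.371 to 0.540) in early nephron-like nuclei.

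Within early nephron-like nuclei at E18.5, Fgf10 was highest in a cluster of 268 nuclei led by Grid1, with 159 CPM (136 to 184). In proximal tubule-like nuclei, Fgf10 had 53.7 CPM at E18.5 and 16.8 CPM at P3, a ratio of 0.312 (0.255 to 0.381), or 0.638 with 20 neighbours. Of the E18.5 UMIs, 103 lay in a cluster of 165 nuclei led by Grid1 and Stxbp5l (180 CPM, 147 to 218) and 76 in a cluster of 255 nuclei also led by Grid1 (86.3 CPM, 68.0 to 108). The main E18.5 cluster of this class, of 845 nuclei, had 21.1 CPM and those at P3 had 22.6 and 14.9 CPM. A P3 cluster of 68 nuclei with Grid1 and Stxbp5l among its leading genes had no class and 54.8 CPM (34.4 to 83.0). The classes thus differed in make-up between the ages.

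In the stroma, Fgf10 and, in part, Fgf7 were measured in the same rare clusters. Interstitium-like clusters led by Ebf2 or Sntg1, with Col6a6 among their leading genes, held 126 of 2150 interstitium-like nuclei at E18.5 and 30 of 2131 at P3. They held 72.8% of the Fgf10 UMIs of this class at E18.5 and 75.9% at P3. Of its Fgf7 UMIs they held 80.3% (49 of 61) at E18.5 and 39.0% (16 of 41) at P3. Fgf10 had 381 CPM (325 to 444) in them at E18.5 and 749 CPM (610 to 910) at P3, against 9.20 and 3.24 CPM in the rest of the class. Within the E18.5 nuclei a cluster of 34 had 910 CPM (754 to 1089) and another of 92 had 148 CPM (108 to 199). At P3, a further cluster without a class, of 15 nuclei led by Car3, Ebf2 and Plin1, had 567 CPM (424 to 741). Plin1 encodes a coat protein of lipid droplets.

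Fgf7 (ENSMUSG00000027208, chromosome 2, 126034658 to 126091185, plus strand) was sparse, with 125 UMIs in the E18.5 library and 97 in that of P3. In the clusters led by Ebf2 or Sntg1 it had 115 CPM (84.7 to 151) at E18.5 and 119 CPM (67.8 to 193) at P3, against 1.81 and 2.53 CPM in the other interstitium-like nuclei. The ratio between the ages in these clusters was 1.04 (0.550 to 1.85). Over all interstitium-like nuclei it was 0.474 (0.311 to 0.715), but 2.53 with Leiden clusters. Without these clusters it was 1.40, from 12 and 25 UMIs at levels whose intervals overlapped (0.935 to 3.16 and 1.64 to 3.73 CPM). For Fgf10 it was 0.418 (0.335 to 0.521) over the class, but 1.80 with Leiden clusters and 0.731 with called doublets kept, and 1.96 (1.52 to 2.53) within these clusters. At E18.5 they were clusters of 34 and 92 nuclei with unlike Fgf10 levels, as given above, and at P3 a cluster of 30. The part of this mix in the ratios within them was not tested. Clusters of 12 nuclei at E18.5 and 13 at P3, led by the smooth muscle genes Myh11 and Actg2 with Rbm24, had 154 CPM of Fgf7 (56.6 to 336, 6 UMIs) and 95.4 CPM (31.0 to 223, 5 UMIs). These 5 UMIs made the mural-like class of 45 nuclei the leading class at P3, with 28.8 CPM.

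In interstitium-like nuclei thinned to 1000 UMIs at P3, 7 had Fgf7, 27 had Fgf10 and 3 had both, against 0.0888 for independent genes. At E18.5, 14 and 39 nuclei had a UMI and 1 had both, against 0.255. At 2000 UMIs, 5 E18.5 nuclei had both against 0.854, and 3 P3 nuclei against 0.207. Independence was taken over the whole class, in which the rare clusters led by Ebf2 or Sntg1 held much of both genes. These counts therefore do not bear on pairing of the 2 genes within those clusters, which was not tested. Fgf9 and Fgf20 were found together in 1 thinned progenitor-like nucleus at E18.5, against 0.219. At E18.5 the observed over independent count of Fgf7 and Fgf10 was 3.93 (0.0995 to 21.9) at 1000 UMIs and 5.85 (1.90 to 13.7) at 2000. That of Fgf9 and Fgf20 was 4.58 (0.116 to 25.5). Of these 3 intervals, all at E18.5, only that at 2000 UMIs excluded 1. Intervals of the P3 counts are not given here, and no count here had over 5 nuclei with both genes.

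Among the receptors, Fgfr1 (ENSMUSG00000031565, chromosome 8, 25513654 to 25575718, plus strand) was highest in early nephron-like nuclei, with 368 CPM (345 to 392) at E18.5 and 622 CPM (595 to 650) at P3. Nephron progenitor-like nuclei followed with 304 CPM (292 to 316) and 307 CPM (288 to 327), and podocyte-like nuclei with 205 and 249 CPM. The order of these 3 classes was the same at both ages, and both steps exceeded counting error. Urothelium-like nuclei had the lowest values, 56.7 CPM (35.9 to 85.1) and 39.4 CPM (25.5 to 58.1). These intervals overlapped those of other classes, such as intercalated-like nuclei at E18.5 (36.7 to 97.8) and leukocyte-like nuclei at P3 (35.8 to 79.0). The ratio of P3 to E18.5 in early nephron-like nuclei was 1.69 (1.56 to 1.83), but 1.15 with called doublets kept and 1.07 with 20 neighbours. The Grid1-led cluster of 268 nuclei in the E18.5 class had 140 CPM of Fgfr1, whereas the other 3 clusters had 506, 591 and 608 CPM. Clusters led by Sulf1, Ndnf and Tacr1 among others counted as early nephron-like at P3 (160 nuclei, 674 CPM) but had no class at E18.5 (428 nuclei, 317 CPM).

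Fgfr2 (ENSMUSG00000030849, chromosome 7, minus strand, starting at 130162451) was highest in the ureteric lineage, but exceeded Fgfr1 and Fgfr3 in CPM in every class at both ages. In early nephron-like nuclei Fgfr1 had 368 CPM at E18.5 and 622 at P3, against 1058 and 883 for Fgfr2. CPM is not scaled to gene length, and the annotated spans are 62065 bases for Fgfr1 and 15395 for Fgfr3. The span of Fgfr2 depends on the annotation, as given below. These values therefore do not order the receptors by abundance. Collecting duct-like nuclei had 2589 CPM (2518 to 2662) at E18.5 and 2327 CPM (2234 to 2423) at P3, and ureteric tip-like nuclei, which at P3 had most collecting duct markers raised, had 1491 and 1964 CPM. Intercalated-like nuclei, the acid-base cells of the collecting duct, had 1372 CPM at E18.5 and 734 CPM at P3, a ratio of 0.535 (0.457 to 0.626). In the stroma, medullary stroma-like nuclei had 954 CPM at E18.5 and 1231 CPM at P3, against 379 and 352 CPM in nephrogenic zone stroma-like nuclei. The medullary class held 3 clusters of 483, 90 and 778 nuclei at E18.5 and 1 of 309 at P3, when a cluster of 671 nuclei led by Sorcs3, a leading gene of the E18.5 cluster of 778, counted as interstitium-like with 571 CPM. A Fgfr2 UMI was found in 91.1% of thinned collecting duct-like nuclei at E18.5 and in 24.3% of leukocyte-like nuclei, the class with the lowest level at 288 CPM. GENCODE M21 ends Fgfr2 at 133123350, with many other genes inside its span, whereas RefSeq ends it at 130266808 on the same build. Which end the counting used is not given in the sources used here.

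Fgfr3 (ENSMUSG00000054252, chromosome 5, 33721674 to 33737068, plus strand) was highest in proximal tubule-like nuclei, with 71.0 CPM (64.0 to 78.4) at E18.5 and 82.1 CPM (76.4 to 88.1) at P3. The ratio of 1.16 (1.02 to 1.31) turned to 0.861 with called doublets kept. Urothelium-like nuclei, the lining of the outflow tract, followed with 54.2 and 56.7 CPM, and at E18.5 the difference did not exceed counting error (ratio 1.31, 0.852 to 2.11). At P3 a proximal tubule-like cluster of 310 nuclei had 148 CPM (133 to 164) and another, of 980, had 60.4 CPM (54.7 to 66.4). In early nephron-like nuclei, the P3 cluster of 116 nuclei had 62.3 CPM, and the Rmst clusters had 1.59 and 10.1 CPM. At E18.5, the Grid1-led cluster had 63.4 CPM. At each age the early nephron-like cluster that was lowest in Fgfr1 was thus the highest in Fgfr3.

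Between the ages over all nuclei, none of the 9 genes reached 2 times its E18.5 level, as 5.12% of 18543 genes did. Fgf8 fell to 0.496 (0.417 to 0.588) of its E18.5 level and was the only one at or below 1/2, where 10.5% of genes were. Fgf10 had a ratio of 0.541 (0.501 to 0.584), Fgfr3 of 1.54 (1.43 to 1.67) and Fgf20 of 1.43 (1.09 to 1.88). Fgf1, Fgf7, Fgfr1 and Fgfr2 lay between 0.920 and 1.06. With E18.5 levels and the P3 make-up of classes, the ratio would be 0.843 for Fgf8, 1.02 for Fgf10, 0.644 for Fgf20 and 1.31 for Fgfr3.

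Within classes, 70 pairs of gene and class had at least 50 UMIs in both libraries together, and 5 were at 2 times the E18.5 level or more at P3 and 7 at 1/2 or less. The higher values were those of Fgfr3 in nephron progenitor-like nuclei (2.11, where 4.22% of genes passed), Fgf9 in early nephron-like (2.02, 3.66%) and proximal tubule-like nuclei (3.14, 5.19%), Fgf1 in urothelium-like nuclei (2.78, 3.52%) and Fgfr3 in nephrogenic zone stroma-like nuclei (2.14, 4.7%). The lower values were those of Fgf1 and Fgf8 in nephron progenitor-like nuclei (0.174 and 0.400, 11.0% of genes) and of Fgf7 and Fgf10 in interstitium-like nuclei (0.474 and 0.418, 12.7%). Fgf10 was also lower in early nephron-like (0.448, 8.85%), proximal tubule-like (0.312, 13.8%) and nephrogenic zone stroma-like nuclei (0.424, 14.2%). Of these, the ratio of Fgf10 became 1.80 in interstitium-like nuclei with Leiden clusters and 0.638 in proximal tubule-like nuclei with 20 neighbours. That of Fgf7 in interstitium-like nuclei also turned to the opposite direction with Leiden clusters. Besides these pairs, only Fgf1 in nephron progenitor-like and Fgf9 in proximal tubule-like nuclei were rerun under alternatives. How the ratios of the other pairs named here depend on the clustering is not known. The early nephron-like class held Rmst clusters of 71 of its 647 nuclei at E18.5 and of 96 and 141 of its 513 at P3, where Fgf9 had 85.8, 59.0 and 68.4 CPM, and their part in the ratio of Fgf9 was not tested.

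The ratios over all nuclei moved with gene length. The median log2 ratio of all genes was -0.11, and it was -0.44 for the shortest of 3 equal groups by annotated span, -0.15 for the middle group and 0.15 for the longest. Fgf8, with a span of 6118 bases, is in the shortest group, Fgf20 and Fgfr3 are in the middle group and the other 6 are in the longest. In RefSeq Fgf20 spans 7788 bases rather than 29166, which is within the range of the shortest group (up to 12513). The part of gene length in the ratios was not tested.

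**Figure D3:**
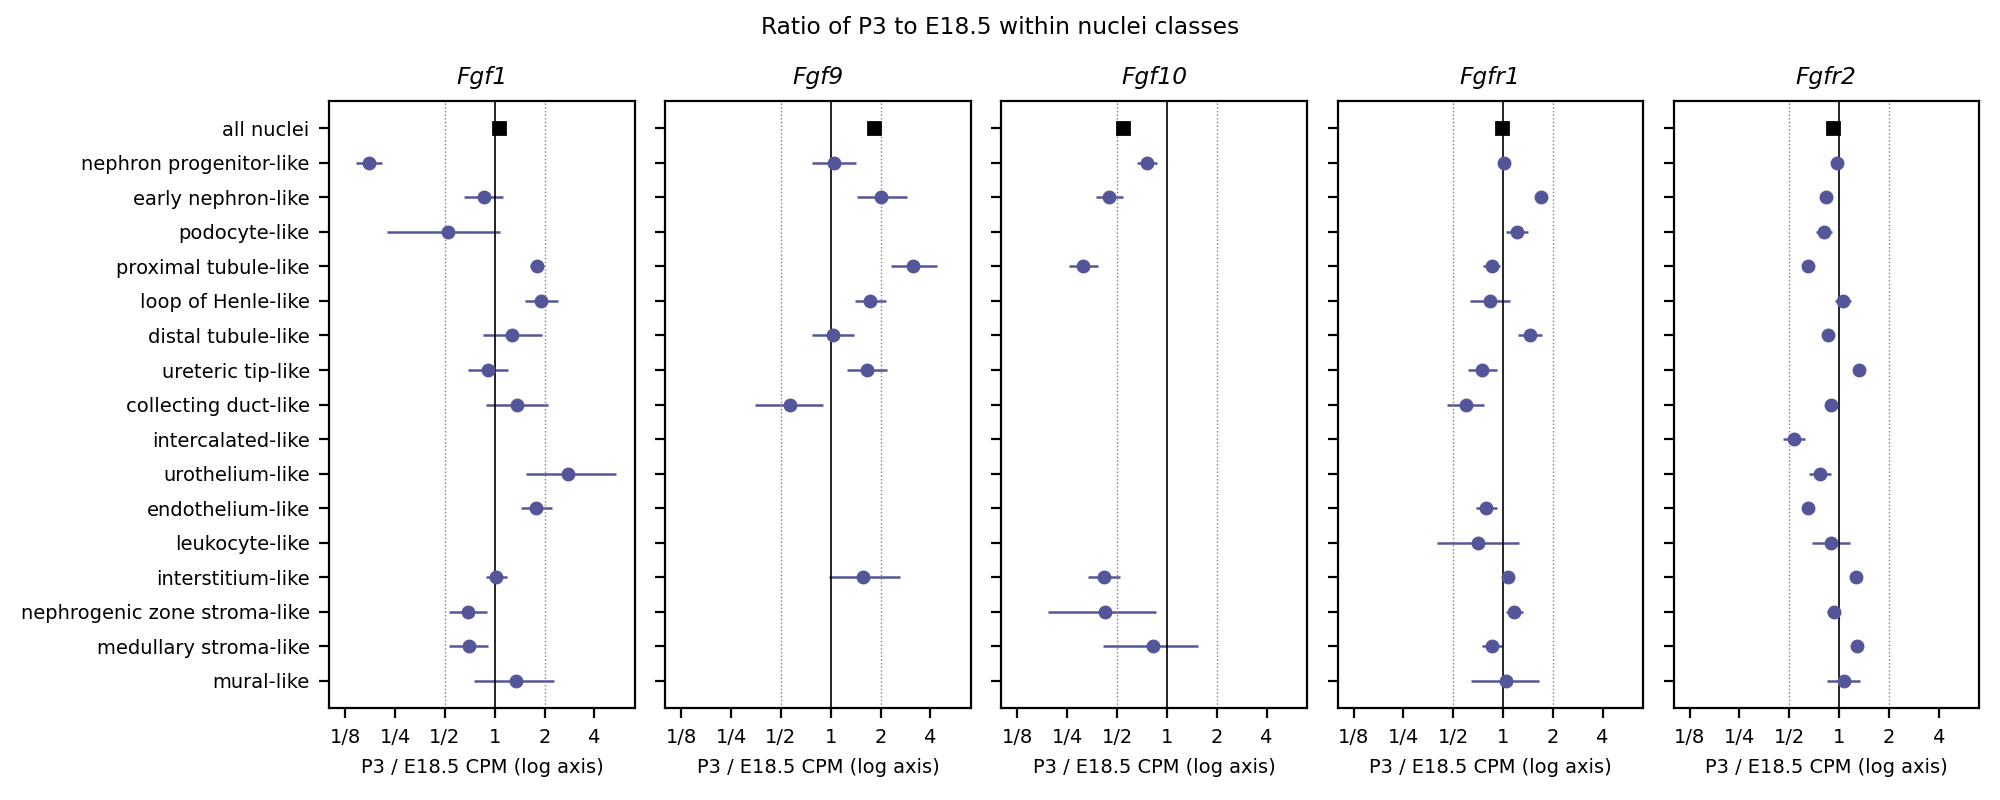
Ratio of P3 to E18.5 CPM (log axis) of 5 FGF genes over all nuclei (squares) and within classes (circles), with exact 95% conditional binomial intervals; classes with under 50 UMIs in both libraries together are left out, and dotted lines mark 1/2 and 2. Fgf1 lies at 0.174 in nephron progenitor-like nuclei and at 1.80 in proximal tubule-like nuclei, while its value over all nuclei is 1.06.

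The rest of the pathway was counted from a list of 57 genes, of which 56 are in the matrices and 47 had at least 50 UMIs. At P3, 1 of the 47 was at 2 times its E18.5 level or more, against 5.12% of all genes, and 2 were at 1/2 or less, against 10.5%. The median log2 ratio was -0.05 for the list and -0.11 for all genes. The gene that rose was Fgf12, an intracellular FGF homologous factor that is not secreted, with a ratio of 2.21 (2.10 to 2.33). The genes that fell were Etv4, with 0.441 (0.408 to 0.475), and Fgfbp1, a carrier protein for secreted FGFs, with 0.491 (0.344 to 0.691).

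Of 12 other ligands, 3 had at least 50 UMIs and 0 passed 2 times in either direction. Fgf2, a ligand with no signal peptide, had 62.4 CPM (54.6 to 70.9) in nephrogenic zone stroma-like nuclei at E18.5 and 57.9 CPM (47.9 to 69.5) at P3, 8.46 and 7.50 times all other nuclei. Of the other receptors and co-receptors, 5 of 5 were counted and 0 passed. Kl, which encodes the co-receptor klotho, had 145 CPM in distal tubule-like nuclei at E18.5 and 426 CPM (400 to 454) at P3, whereas proximal tubule-like nuclei had 212 and 192 CPM. Fgfr4, another FGF receptor, had 149 CPM in proximal tubule-like nuclei at E18.5 and 89.5 at P3. The 11 adaptors and transducers were all counted, and 0 passed.

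Of 11 targets and transcription factors, 1, Etv4, passed. At E18.5 Etv4 had 223 CPM (203 to 243) in ureteric tip-like nuclei and 116 in progenitor-like nuclei. At P3 it had 80.7 and 29.7 CPM in them, the tip-like class by then having most collecting duct markers raised, and 117 CPM (106 to 130) in early nephron-like nuclei, its leading class. Etv5 had 230 CPM in ureteric tip-like nuclei at E18.5 and 108 at P3, where early nephron-like nuclei had 109. Il17rd, a membrane antagonist of FGF signalling, was highest in early nephron-like nuclei at both ages, with 260 CPM (240 to 280) and 623 CPM (596 to 651), the class where Fgfr1 was also highest. The early nephron-like class differed between the ages in the clusters it held. The part of this in its values of Etv4, Etv5 and Il17rd was not tested. Spry4, a feedback inhibitor, was highest in nephrogenic zone stroma-like nuclei, with 22.8 and 20.5 CPM, and Dusp6, a MAP kinase phosphatase, had 49.4 and 56.3 CPM in leukocyte-like nuclei. Of 14 modulators and heparan sulfate enzymes, 13 were counted and 1 passed. Sulf1, an extracellular sulfatase acting on heparan sulfate, had 152 CPM in progenitor-like nuclei at E18.5 and 435 CPM (412 to 459) at P3.

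**Figure D4:**
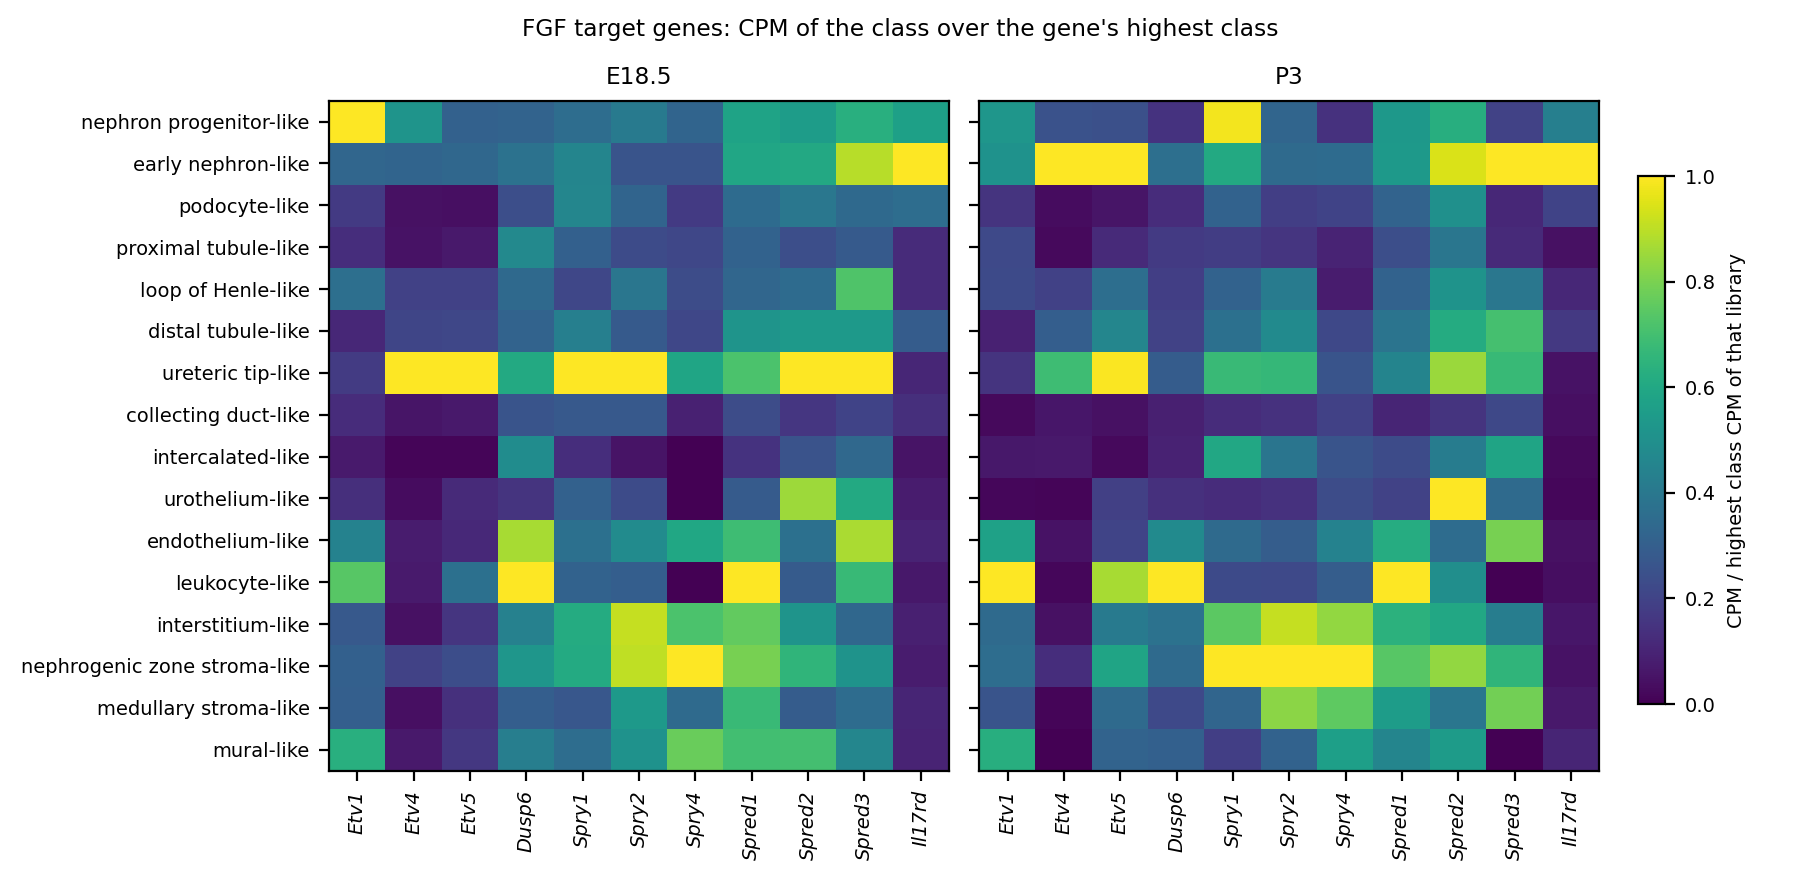
Level of 11 FGF target genes in each class (rows), as CPM divided by the CPM of the gene's highest class in that library, from 0 to 1 on the colour scale. In ureteric tip-like nuclei Etv4 and Etv5 are at their highest at E18.5, with 223 and 230 CPM, and at P3 early nephron-like nuclei have 117 and 109 CPM, against 80.7 and 108 in ureteric tip-like nuclei.

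By the pattern over 16 classes at 2 ages (32 points that share libraries and depth), the log2 of CPM plus 10 of each FGF gene was set against that of 13151 genes with at least 500 UMIs. Fgf9 was most like Slain1 (Pearson's r 0.885), Fgfr2 most like the antisense gene Grip1os2 (0.884) and Grip1 (0.854), and Fgf7 most like Ndst3 (0.868), Myocd (0.861) and Dgkb (0.852). The pattern of Fgf7 peaked at P3 in mural-like nuclei, on 5 UMIs, and its level there was 0.0 with Leiden clusters or 20 neighbours. Fgfr1 was most like Nkain3 (0.858) and Lrig3 (0.842), Fgf10 most like Cftr (0.839) and Frzb (0.825), and Fgf8 most like Dpysl5 (0.808) and Uncx (0.796). For Fgfr3 the leading genes were Nectin1 (0.785), Snhg11 (0.779) and Slc47a1 (0.777). Fgf1 and Fgf20 were less closely matched, to Gm5820 (0.731) and 2900089D17Rik (0.710). The pattern of Fgf20 rested on 104 and 120 UMIs in the libraries. Its highest class had 7.04 CPM, less than the 10 added, so its weaker match cannot be told apart from sparse counts.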

How the data were processed

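Single nuclei of whole kidneys were measured in 1 library at E18.5 and 1 at P3. The authors deposited counts that they made with Cell Ranger, UMIs per gene and barcode as whole numbers without normalization. The headers name release 7.0.0 for the E18.5 file and 5.0.1 for that of P3, and the submitters' processing notes give 5.0.1 and mm10. Whether intronic reads were counted is not given in the sources used here.

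Barcodes over 3 median absolute deviations below the median of log UMIs or log genes, or above the mitochondrial limit (0.602% and 0.575%), were removed, and 16.6% and 17.4% of nuclei were called doublets with scrublet (scanpy 1.11.5) and left out. Nuclei were normalized and clustered with scran 1.30.0, scater 1.30.1 and igraph 2.1.4 in R 4.3.3 (2000 variable genes, 50 components, 10 neighbours, Walktrap), leaving out the FGF genes and pathway list, and stromal and nephrogenic nuclei were clustered again. A cluster was named where at least 3 markers had 10 UMIs and 2 times the other nuclei (10 CPM added), unless another class led or reached over 0.8 times its share. Ureteric clusters were split into tip and collecting duct by leading markers, then share, and stromal clusters without a zone were called interstitium-like. These naming rules were set after clusters were seen, and the members and lists were chosen with earlier results of these data known. The pathway list is counted whole, and the 3 genes most like each member were named. Ratios have exact conditional binomial intervals, levels Poisson and shares binomial ones. In simulated Poisson counts for all nuclei, 194 of 200 intervals held the planted ratio. This checks the calculation only, since the counts had no variation between nuclei or libraries beyond counting error. Thinning drew 1000 or 2000 UMIs per nucleus. Coordinates are GENCODE M21 (GRCm38). Doublets, cluster method, neighbours, markers alone, quality limits and weighting were varied. With 1 library per age there is no p-value. Python 3.11.15 with scipy 1.17.1 was used.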

Additional observations from a re-analysis of the deposited data

Results flagged for a closer look

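For 5 genes the ratio of P3 to E18.5 lay above 1.5 in at least 1 class and below the inverse in another, with intervals that excluded 1. The share of all genes that meet this rule was not counted, so the count does not set the FGF genes apart. The difference between classes was not tested, since each age is 1 library. Fgf1 had 2.78 (1.54 to 5.39) in urothelium-like nuclei, where it rested on 14 and 61 UMIs, and 0.174 in nephron progenitor-like nuclei. Fgf8 had 1.87 (1.28 to 2.78) in early nephron-like nuclei and 0.400 (0.210 to 0.708) in nephron progenitor-like nuclei. Clusters with Rmst among their leading genes held 71 of 647 early nephron-like nuclei at E18.5 and 96 and 141 of 513 at P3, and their part in the ratio was not tested. Fgf9 had 3.14 in proximal tubule-like nuclei and 0.565 in collecting duct-like nuclei. Fgfr1 had 1.69 in early nephron-like nuclei, but 1.15 with called doublets kept and 1.07 with 20 neighbours, and 0.598 in collecting duct-like nuclei. The proximal tubule-like and collecting duct-like classes differed between the ages in the clusters they held, and the part of this in their ratios was not tested. Fgfr3 had 2.14 (1.24 to 3.73) in nephrogenic zone stroma-like nuclei, from 27 and 31 UMIs, and 0.530 in early nephron-like nuclei. The nephrogenic zone stroma-like class had 5 of 6 markers raised at E18.5 and 3 of 6 at P3.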

How the results depend on the processing

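No paired analysis was possible because each age is 1 library. Alternative clusterings within classes and leaving out the Ebf2 clusters were chosen after seeing the data, and the cause of each change was not tested. Of the ratios of P3 to E18.5, Fgf10 over all nuclei was 0.606 as the mean of each nucleus's CPM. With called doublets kept, Fgf9 in proximal tubule-like nuclei was 4.85, Fgf10 in interstitium-like nuclei 0.731, Fgfr1 in early nephron-like nuclei 1.15 and Fgfr3 in proximal tubule-like nuclei 0.861, the opposite direction. With Leiden clusters, Fgf1 and Fgf9 in loop of Henle-like nuclei were 2.89 and 3.19. That class held 913 nuclei at E18.5 and 391 at P3, against 251 and 360 in the main clusters. Also with Leiden clusters, Fgf10 in proximal tubule-like nuclei was 0.401, and Fgf10 and Fgf7 in interstitium-like nuclei turned to 1.80 and 2.53. With 20 neighbours, Fgf1 and Fgf10 in proximal tubule-like nuclei were 1.54 and 0.638, Fgf10 in interstitium-like nuclei 0.569 and Fgfr1 in early nephron-like nuclei 1.07. As the mean of CPM, Fgf10 in interstitium-like nuclei was 0.522. Without the clusters led by Ebf2 or Sntg1, Fgf7 in interstitium-like nuclei was 1.40, from 12 and 25 UMIs at levels whose intervals overlapped. The ratio of Fgf1 in nephron progenitor-like nuclei lay between 0.163 and 0.183 under the 4 alternatives run on it.

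With nuclei taken by markers alone, 5 of 9 genes kept their leading class at E18.5. Over both ages, 10 ratios of leading class to all other nuclei then lay outside their main intervals, 3 more reversed and 5 lay within. With called doublets kept, 9 lay outside and 9 within, and the levels in these classes split alike. With 20 neighbours 11 lay within, with Leiden clusters 12 and as the mean of CPM 12. Against all other nuclei, Fgf8 in distal tubule-like nuclei at E18.5 fell to 0.848 with 20 neighbours and 0.560 with markers alone. Fgf7 in mural-like nuclei at P3 was at 0.0 with Leiden clusters, 20 neighbours and markers alone, and Fgf20 in nephron progenitor-like nuclei at P3 was at 0.0 with markers alone. Leiden clusters named no collecting duct-like class at P3. At 1.5 times, 4 of 47 pathway genes were higher and 4 lower at P3, and with at least 200 UMIs 1 was lower. The share of all genes was not counted at these settings, so these counts have no background to be set against. Depth limits Fgf7 and Fgf20 most, with 97 to 125 UMIs in a library.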
